A study of Mus musculus with 4 samples.

Results

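Transcripts of 6 red cell genes were followed through single marrow cells sorted with and without the adhesion receptor CD44. The genes are Beta-s, Car1, Car2, Prdx2, Bpgm and Blvrb, 6 of the 17507 gene names in the tables. They were chosen by name, with earlier results of these data known. Developing red cells need their products for oxygen and carbon dioxide transport and for protection from oxidation. The cells came from bone marrow of C57BL/6 mice, freed by enzymes (dispase at 1 mg/mL together with 2 mg/mL of collagenase IV), and were CD51- cells that the labels call TNCs without spelling the abbreviation out. They were sorted as CD44+ or CD44- into the wells of 4 plates and measured by SORT-seq, in which each transcript is counted once through a unique molecular identifier (UMI). The labels give neither the age nor the number of the mice, and name no genetic change and no treatment of them. Replicate 1 of each sort is a plate of its own; replicates 2 and 3 are the CD44+ rows A to H and the CD44- rows I to P of 2 shared plates.

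Hemoglobin is a tetramer of alpha and beta globin chains around heme, and its transcripts come to dominate a red cell precursor as it matures, while most other transcripts are lost. Carbonic anhydrases convert carbon dioxide and water to bicarbonate and back, which lets blood carry carbon dioxide. Red cells also need enzymes that remove peroxides, and one that makes bisphosphoglycerate, the metabolite that lowers the affinity of hemoglobin for oxygen. CD44 is known to decline on the cell surface as red cell precursors mature.

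All 6 genes matched protein-coding genes of the GRCm38 (mm10) annotation (GENCODE vM21). Beta-s is the name in the tables for Hbb-bs, an adult beta globin gene, which lies at chr7:103826534-103828096 on the minus strand, with 12537 bases between it and its near-identical neighbour Hbb-bt. The coding sequences of Hbb-bs and Hbb-bt were 99.8% identical, and the last 200 bases of their transcripts were 78.8% identical. How the authors' counting divided reads between the copies is therefore uncertain, and no gene was listed under the name Hbb-bt. Car1 lies at chr3:14766216-14808368 on the minus strand and Car2 at chr3:14886273-14900770 on the plus strand, 77904 bases apart. Their coding sequences were 64.6% identical and their last 200 transcript bases 47.8% identical. Prdx2 lies at chr8:84969587-84974834, Bpgm at chr6:34476207-34505613 and Blvrb at chr7:27447978-27466144, all on the plus strand.

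RefSeq promoters (GRCm38.p6) were found for 4 of the 6 genes, Beta-s, Prdx2, Bpgm and Blvrb. The 250 bases before the RefSeq start are shown for the globin gene, for Bpgm and for Prdx2. Bpgm transcripts were found in the same wells as the highest globin shares. Of the Prdx2 transcripts, 89.5% lay in the wells led by erythroid progenitor markers described below. These include the well with the most transcripts of both Prdx2 and Beta-s. Capitals mark matches to CCAAT, to the erythroid factor motif AGATAA or to the globin promoter motif CCACACCC, searched on both strands; no match overlapped another.
Hbb-bs, chr7:103827929-103828178, minus strand: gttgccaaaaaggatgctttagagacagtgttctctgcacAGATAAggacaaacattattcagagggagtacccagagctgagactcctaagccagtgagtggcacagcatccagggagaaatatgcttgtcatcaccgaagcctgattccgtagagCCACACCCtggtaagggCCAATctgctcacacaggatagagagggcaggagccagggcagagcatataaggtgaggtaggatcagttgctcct
Bpgm, chr6:34476106-34476355, plus strand: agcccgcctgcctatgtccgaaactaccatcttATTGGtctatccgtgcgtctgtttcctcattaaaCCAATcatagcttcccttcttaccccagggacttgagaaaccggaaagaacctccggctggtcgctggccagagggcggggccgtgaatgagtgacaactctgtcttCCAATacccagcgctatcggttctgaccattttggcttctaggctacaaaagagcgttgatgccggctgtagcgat
Prdx2, chr8:84969372-84969621, plus strand: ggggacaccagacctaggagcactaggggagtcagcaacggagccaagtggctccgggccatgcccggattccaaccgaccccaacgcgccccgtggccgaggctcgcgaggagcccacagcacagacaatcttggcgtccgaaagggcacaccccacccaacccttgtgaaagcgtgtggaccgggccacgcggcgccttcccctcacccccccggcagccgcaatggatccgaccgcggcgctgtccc
The Hbb-bs window held 1 match to each of the 3 motifs, with CCAAT beginning 76 bases and CCACACCC 93 bases before the start. The Bpgm window held 3 matches to CCAAT, 1 of them also 76 bases before the start. Neither the Prdx2 window nor the 2 RefSeq promoters of Blvrb held any of the 3. Among all 32851 promoters of this length, 33.8% held CCAAT, 9.99% AGATAA and 3.20% CCACACCC. A match describes the letters and is no evidence of binding.

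A well was kept as a cell when it held at least 1000 transcripts, which 343 of 1536 wells did, 238 CD44+ and 105 CD44-. The CD44+ libraries summed 149707 to 1707320 transcripts over 56 to 95 kept wells, and the CD44- libraries 97042 to 158763 over 24 to 44. Median transcripts per kept well were 1994, 5162 and 11225 in CD44+ replicates 1, 2 and 3, against 1848, 1795 and 2544 in CD44-. Wells low in quality (at least 50% mitochondrial transcripts, or at least 2% of Kcnq1ot1) were 107 of the 343, from 12.5% to 55.4% of a library. Cd44 itself stood at 93.5 to 284 CPM in CD44+ and 113 to 345 CPM in CD44-, so its transcript did not separate the sorts. The other cell types in the sorts differed between libraries: 16 stromal and bone markers summed to 220 to 1603 CPM (counts per 1000000 transcripts of the summed library) in CD44+ and to 6194 to 32606 CPM in CD44-, and 11 neutrophil markers to 4848 to 12636 CPM against 1323 to 36781 CPM. The 20 erythroid progenitor markers other than the 6 genes summed to 4265 to 7459 CPM in CD44+ and 2915 to 3666 CPM in CD44-, where Gata1 and Gfi1b were at 0 in replicate 1. A level in a summed library cannot tell fewer red cell precursors from less RNA per precursor, and the part of these differences in the results below was not tested.

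Car1, Car2, Prdx2 and Blvrb were higher in every CD44+ library than in any CD44- library, whereas Bpgm was lower in every CD44+ library and Beta-s overlapped. The share of all genes that separate the sorts in this way was not counted, so no background stands beside this non-overlap. The main test, edgeR without a block, called none of the 5 genes abundant enough to be tested, all of which had an unadjusted p under 0.05. As an alternative, the replicate pair was a block (replicates 2 and 3 of both sorts share a plate, replicate 1 does not). With the block, edgeR called Car1, Car2, Prdx2 and Blvrb, 4 of the 5, against 1.75% of all 2463 tested genes called higher. DESeq2, another alternative, called all 5, with Beta-s lower. It called 3.98% of the 2463 genes higher and 6.98% lower. In edgeR without the block only 0.0406% of all genes were called higher and 0.974% lower (4.59% lower with the block); 470 genes had an unadjusted p under 0.05. The median log2 difference of all tested genes was -0.04.

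**Figure D1:**
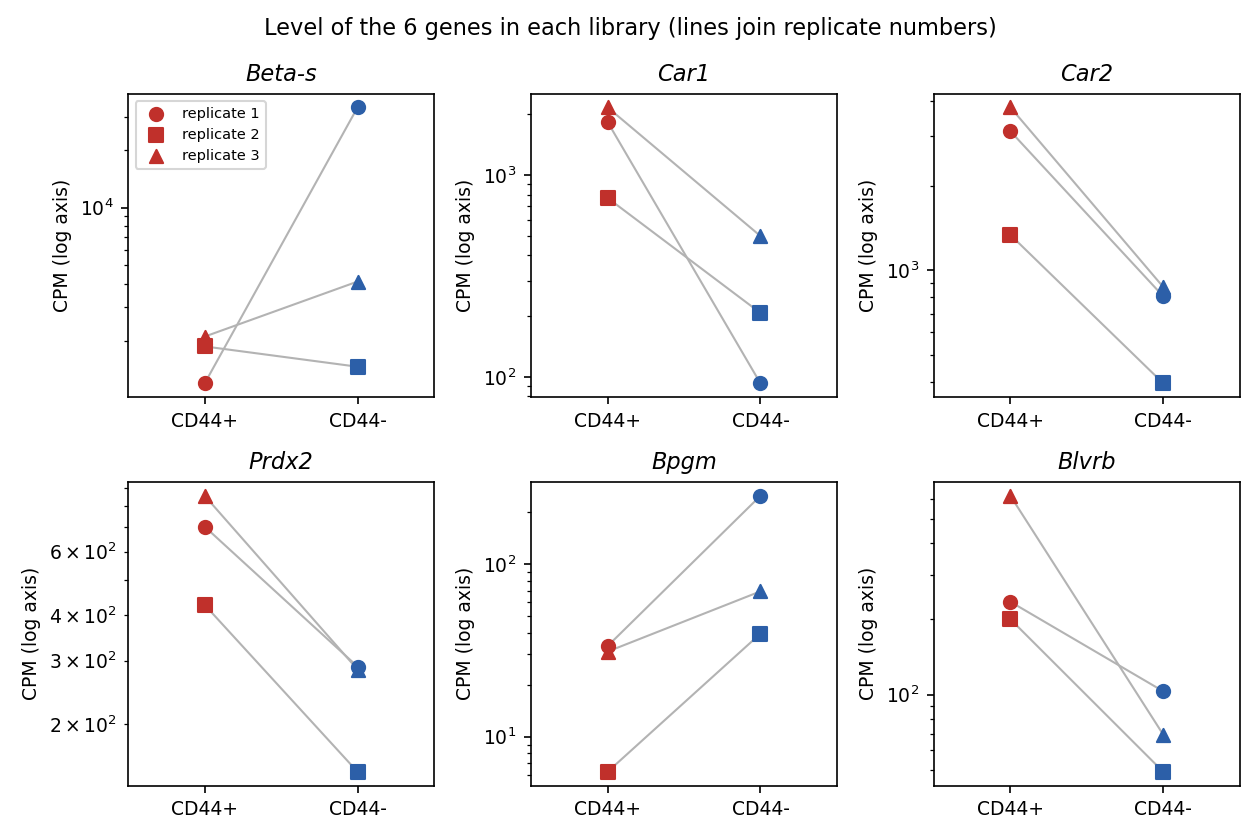
Level of each of the 6 genes in the 3 CD44+ and the 3 CD44- libraries, in CPM on log axes that differ between panels; each point is a summed library and lines join equal replicate numbers. Car1, Car2, Prdx2 and Blvrb sit higher in all CD44+ libraries, Bpgm lower, and the Beta-s point of CD44- replicate 1, at 33551 CPM, stands apart from the other 5.

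Car1 encodes carbonic anhydrase I of red cells. It stood at 1832, 770 and 2164 CPM in CD44+ replicates 1, 2 and 3 and at 92.8, 207 and 498 CPM in CD44-. Every CD44+ value was above every CD44- value, and the lowest of them all, CD44- replicate 1, rested on 9.01 transcripts, 8.01 of them in 1 well. The mean was 1588 ± 728 CPM (SD, n = 3) in CD44+ and 266 ± 209 CPM in CD44-. The log2 difference by edgeR's quasi-likelihood test was 2.55 (SE 0.46) with an adjusted p of 0.0104 with the block, and 2.56 (SE 0.62) with an adjusted p of 0.102 without it. Within the pairs, the log2 ratio of CD44+ to CD44- was 4.16, 1.84 and 2.10 after adding 10 CPM to each value.

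Car2 encodes carbonic anhydrase II, the fast isoform, which red cells share with osteoclasts and other tissues. It was the more abundant of the pair in all 6 libraries, at 3125, 1335 and 3802 CPM in CD44+ and 806, 395 and 870 CPM in CD44-. The sorts did not overlap here either, and replicate 2 was lowest in both. Its log2 difference was 1.86 (SE 0.27, adjusted p = 0.00299 by edgeR with the block) and 1.91 (SE 0.53, adjusted p = 0.122) without it. The log2 ratios within the pairs were 1.94, 1.73 and 2.11.

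Of the other carbonic anhydrase genes, 13 were in the tables and none passed the filter on low counts. The most abundant were the mitochondrial isoforms. Car5b had 31 transcripts in CD44+ (10.4 CPM over the 3 libraries) and 12 in CD44- (33.6 CPM). Car5a had 26 and 3 transcripts, too few to compare. Car1 and Car2 were therefore the only carbonic anhydrase genes tested.

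Prdx2 encodes peroxiredoxin 2, an abundant red cell protein that removes hydrogen peroxide. It stood at 703, 427 and 855 CPM in CD44+ and 289, 148 and 284 CPM in CD44-, again without overlap. The log2 ratios within the pairs were 1.25, 1.47 and 1.56, the narrowest range of the 6 genes. The edgeR log2 difference was 1.38 (SE 0.29, adjusted p = 0.0235) with the block and 1.36 (SE 0.44, adjusted p = 0.163) without.

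The list of 20 peroxiredoxins and other peroxide enzymes had 16 tested genes, of which edgeR called none without the block (6 at an unadjusted p under 0.05) and 2, Prdx2 and Gclm, higher in CD44+ with it; DESeq2 called 2 higher and 2 lower. Gclm, a subunit of the enzyme that begins glutathione synthesis, stood at 220, 108 and 266 CPM in CD44+ and 61.8, 39.5 and 75.6 CPM in CD44- (log2 difference 1.63, SE 0.40, adjusted p = 0.0407 by edgeR with the block; 0.141 without). The most abundant genes of the list were Gpx1, glutathione peroxidase, at 1329 ± 419 CPM (SD, n = 3) in CD44+ and 964 ± 215 CPM in CD44-, and Sod1, superoxide dismutase, at 647 ± 133 and 368 ± 57.8 CPM. Their log2 differences of 0.31 (adjusted p = 0.662, edgeR) and 0.73 (adjusted p = 0.259) did not pass, nor did that of Gpx4, which repairs lipid peroxides (0.65, adjusted p = 0.403). The list's median log2 difference was 0.35, with 10 of 16 above 0.

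Blvrb encodes biliverdin reductase B, which reduces flavins and biliverdin and is abundant in red cells. It stood at 234, 199 and 616 CPM in CD44+ and 103, 49.3 and 69.3 CPM in CD44-. The sorts did not overlap, but the CD44- levels rest on only 10, 5 and 11 transcripts. The log2 difference was 2.09 (SE 0.43, adjusted p = 0.0232 by edgeR with the block) and 2.09 (SE 0.53, adjusted p = 0.107) without. Of the list of heme breakdown and methemoglobin reduction, Blvrb alone was abundant enough to test. Blvra, the other biliverdin reductase, had 120 transcripts in CD44+ (40.3 CPM over the 3 libraries) and 12 in CD44- (33.6 CPM). Hmox1, the inducible heme oxygenase, had 11 and 2, too few to compare.

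Bpgm encodes bisphosphoglycerate mutase, which makes bisphosphoglycerate. It was the one gene of the 6 that was lower in every CD44+ library, at 33.4, 6.26 and 31.1 CPM against 247, 39.5 and 69.3 CPM in CD44-. These levels rest on 5, 7 and 53 transcripts in CD44+ and on 24, 4 and 11 in CD44-, and all 4 of CD44- replicate 2 came from 1 well. Bpgm did not pass the filter on low counts. With no filter its log2 difference was -2.02 (SE 0.60, adjusted p = 0.0334, edgeR); in the 4 of 6 fits without 1 library that tested it, the difference was -3.06 to -1.90 with adjusted p of 0.214 to 0.377.

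The list of glycolysis and the pentose phosphate pathway, to which Bpgm belongs, had 15 tested genes and no call in either direction by edgeR, with or without the block, or by DESeq2; none had an unadjusted p under 0.05 without the block and 2 did with it. Its median log2 difference was 0.25, with 8 of 15 above 0. Ldha, lactate dehydrogenase, stood at 446 ± 131 CPM (SD, n = 3) in CD44+ and 342 ± 178 CPM in CD44-, and Gapdh at 392 ± 161 and 266 ± 100 CPM. Tkt, transketolase, had a log2 difference of 0.25 (SE 0.43). Pkm, the pyruvate kinase of most tissues, was at 246 ± 202 CPM in CD44+ and 516 ± 375 CPM in CD44- (log2 difference -1.18, adjusted p = 0.364 by edgeR, 0.0693 with the block).

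Beta-s was the most abundant of the 6 genes in every CD44- library and the most uneven of them there. It stood at 1198, 1872 and 2108 CPM in CD44+ and at 33551, 1465 and 4095.9 CPM in CD44-. CD44- replicate 1 was far above the other 5 libraries, and CD44- replicate 2 fell within the CD44+ range. The log2 difference of -3.21 (SE 1.12, adjusted p = 0.185 by edgeR) did not pass, nor did that of -1.72 with the block (SE 0.81, adjusted p = 0.217), and without CD44- replicate 1 it was -0.54. With DESeq2 it was -3.26 with an adjusted p of 0.0140.

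Single wells set much of the Beta-s level. In CD44+ replicate 2, 1 well held 1711 of the 2094 Beta-s transcripts (81.7%), and without it the library's level was 380 CPM in place of 1872. The highest well held 58.7% of Beta-s in CD44+ replicate 1 and 58.3% in CD44- replicate 3, but 15.4% in CD44+ replicate 3, 27.8% in CD44- replicate 1 and 34.6% in CD44- replicate 2. Without the highest well of each library, the log2 difference was -3.62.

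Few transcripts were assigned to Hba-a1, the alpha globin gene analysed here. It had 10 transcripts in CD44+ and 15 in CD44-, 14 of the latter in replicate 1, where Beta-s had 3256. The coding sequences of Hba-a1 and its copy Hba-a2 were 99.8% identical, so how reads were divided between the copies is uncertain. These counts give no level of alpha globin, and no gene was listed under the name Hba-a2. The other globin genes listed, Hbb-bh1 and Hbb-b2, had 2 and 1 transcripts, all in CD44-.

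Per well, the levels were compared after each kept well was thinned to 1000 transcripts, so that depth did not set how often a gene was found. By means over libraries, the order of the genes was then that of the summed levels in CD44-, and in CD44+ only Beta-s and Car1 changed places. Beta-s was found in 25.0%, 16.8% and 36.8% of CD44+ wells and in 52.3%, 70.8% and 45.9% of CD44- wells. At this minimum of 1 transcript the sorts did not overlap, with the CD44- share the higher, and the exact permutation test over 3 against 3 libraries gave its smallest possible p of 0.1 (two-sided; 0.60 adjusted over the 6 genes). Unthinned, the shares were 35.7% to 77.0% and 61.4% to 83.3%. A minimum of 3 thinned transcripts left Beta-s in 8.93%, 5.26% and 17.2% of CD44+ wells and in 25.0%, 16.7% and 10.8% of CD44- wells, where the sorts overlapped and the difference of the means fell from -30.1 to -7.01 percentage points.

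The share of wells with Car1 was 34.2% ± 17.4 (SD, n = 3) in CD44+ and 22.2% ± 17.5 in CD44-, and overlapped (exact permutation p = 0.5). Car2 was found in 41.8% ± 25.5 and 35.2% ± 22.8 of wells (exact p = 0.7), and Prdx2 in 23.4% ± 10.9 and 20.4% ± 12.8 (exact p = 0.9). Blvrb was found in 18.0% ± 13.9 against 7.61% ± 1.95 (exact p = 0.3) and Bpgm in 3.25% ± 1.82 against 8.64% ± 4.76 (exact p = 0.2). None of the 6 shares passed; adjusted over the 6 genes, p was 0.60 to 0.90. Where every well was thinned before summing, so that each counted alike, the log2 difference fell to 1.72 for Car1, 1.00 for Car2 and 0.34 for Prdx2, and edgeR called none of the 493 genes tested (38 at an unadjusted p under 0.05).

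Some of these shares lie near those of wells led by markers of other cell types. In the 43 wells led by B progenitor markers, Beta-s was found in 23.3% after thinning, Car2 in 11.6%, Prdx2 in 9.30% and Car1 in 6.98%. Their median depth was 4242 transcripts, against 16196 in the wells led by erythroid progenitor markers. Unthinned, these 43 wells held 45.0 Prdx2 and 34.0 Beta-s transcripts. Whether such transcripts were free RNA or the cells' own was not tested. Beta-s was found in 21.1% of the 19 wells led by stromal markers and in 49.3% of the 69 led by neutrophil markers, 35 of them CD44+ and 34 CD44-. Neutrophil markers led 21 of the 24 kept wells of CD44- replicate 2, the library with the highest Beta-s share, and the part of these wells in that share was not tested. Shares below those of the B progenitor wells were Beta-s in CD44+ replicate 2 (16.8%), Car1 and Car2 in CD44- replicate 1 (2.27% and 11.4%), and Bpgm in CD44+ replicates 2 and 3 (2.11% and 2.30%, against 2.33%). Among Beta-s, Car1, Car2 and Prdx2, shares within 5 percentage points above them were Beta-s in CD44+ replicate 1 (25.0%), Car2 in CD44+ replicate 2 (15.8%), and Prdx2 in CD44+ replicate 2 (12.6%) and in CD44- replicates 1 and 2 (13.6% and 12.5%). Bpgm and Blvrb were each found in 1 of the 43 B progenitor wells, so their share there is imprecise. A minimum of 3 thinned transcripts left Car1 in 17.9%, 4.21% and 23.0% of CD44+ wells and in 2.27%, 0 and 5.41% of CD44- wells, and Car2 in 32.1%, 5.26% and 42.5% against 6.82%, 0 and 24.3%. In CD44- replicate 2, with 24 kept wells, no well held 3 or more of either gene after thinning.

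The transcripts of 4 of the genes lay mostly in a small group of deep wells. In 79 wells, markers of erythroid progenitors other than the 6 genes made up at least 0.5% of transcripts, with at least 3 marker genes found, and led those of other types; this limit was set after the values were seen. These wells, 68 CD44+ and 11 CD44-, held 93.0% of all Car1 transcripts in kept wells, 94.0% of Car2, 89.5% of Prdx2 and 92.4% of Blvrb. They held 53.0% of all transcripts in kept wells, so their 58.9% of Beta-s and 42.3% of Bpgm lie near that share. Another 12 wells, 2 CD44+ and 10 CD44-, were led by markers of late erythroid cells, such as Alas2 and Slc4a1. They held 0.687% of all transcripts but 26.9% of Beta-s and 40.4% of Bpgm. Their 1.31% of Prdx2 was also above that share and their 0.748% of Car2 near it. Their 0.223% of Car1 and 0.449% of Blvrb were below it. The median depth of these 12 wells was 1513 transcripts. Beta-s was found after thinning in all 12 of them, Prdx2 in 66.7% and Bpgm in 66.7%. Blvrb was found in none of them after thinning but in 5 of the 12 before it, with 6 transcripts in all.

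The wells led by erythroid progenitor markers were 30.4%, 11.6% and 46.0% of kept wells in CD44+ replicates 1, 2 and 3, and 2.27%, 0 and 27.0% in CD44-. On the second shared plate, where both sorts had at least 10 of them, Car1 stood at 2836 CPM over the 40 CD44+ wells and 707 CPM over the 10 CD44- wells, Car2 at 5062 and 1739 CPM, Prdx2 at 1135 and 676 CPM and Blvrb at 799 and 96.5 CPM. Bpgm stood at 31.4 CPM over the CD44+ wells and 0 over the CD44- wells, opposite to its direction in the summed libraries. Beta-s stood at 2768 and 12604 CPM, but 1 CD44- well of low quality held 379 of the 392 Beta-s transcripts of the 10. Without the well with the most Beta-s in each set, its level was 2405 CPM in CD44+ and 448 CPM in CD44-, so the direction of Beta-s rests on that well. Without the same wells, Car1 stood at 2855 and 690 CPM, Car2 at 5023 and 1069 CPM, Prdx2 at 1078 and 448 CPM and Blvrb at 784 and 34.5 CPM, all still higher in CD44+. The median depth of these wells was 25353 transcripts in CD44+ and 1629 in CD44-, and 1 plate gives no test.

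Car1 and Car2 were mostly found together. Of the 343 kept wells, 127 held both, 63 Car2 alone, 22 Car1 alone and 131 neither, so that 85.2% of wells with Car1 held Car2 and 66.8% of wells with Car2 held Car1. The Spearman correlation of thinned counts over the 343 wells was 0.67, given as a description because wells share libraries and cell types. It was 0.76, 0.55 and 0.65 within CD44+ replicates 1, 2 and 3 and 0.45, 0.10 and 0.44 within CD44-. The weakest value came from the library with 24 wells and no more than 6 Car1 transcripts in a well.

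**Figure D2:**
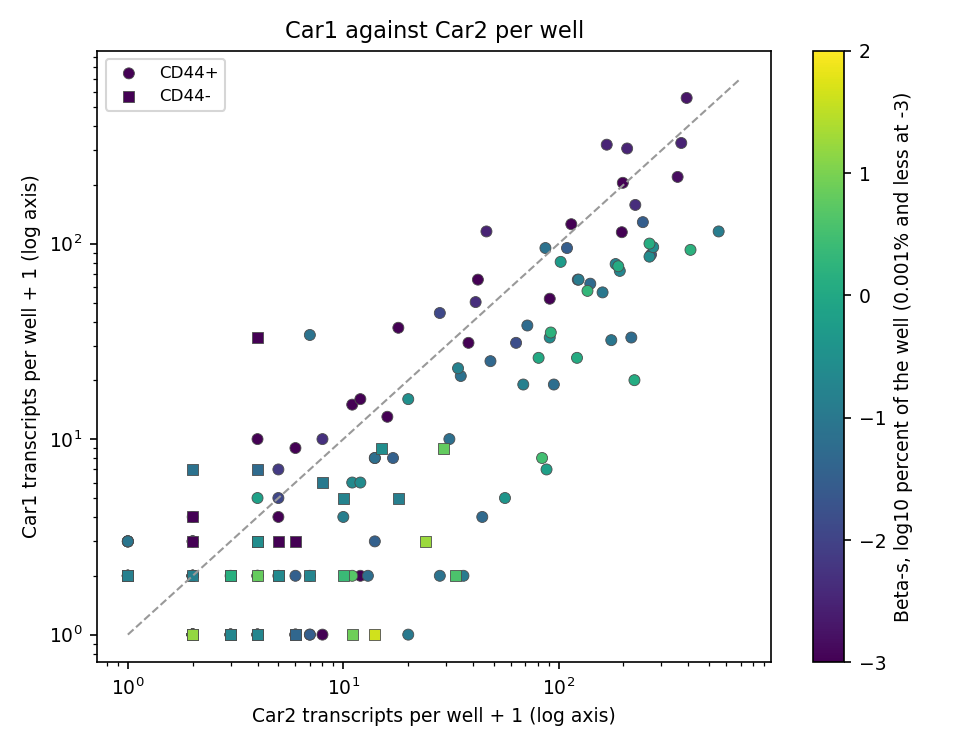
Car1 against Car2 transcripts in each kept well that held either gene, 1 added to each, on log axes; circles are CD44+ and squares CD44- wells, colour is the Beta-s share of the well as log10 percent, and the dashed line marks equal counts. Dark wells with little Beta-s lie on both sides of the line, and wells with more Beta-s lie mostly below it.

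In the summed libraries, the share of Car1 in Car1 and Car2 together was similar in 5 libraries and lower in CD44- replicate 1. It was 37.0%, 36.6% and 36.3% in CD44+ replicates 1, 2 and 3, with 95% exact binomial intervals of 33.4% to 40.5%, 34.6% to 38.6% and 35.3% to 37.2% that cover counting error only. In CD44- it was 34.4% (22.7% to 47.7%) in replicate 2 and 36.4% (30.0% to 43.2%) in replicate 3, and 10.3% (4.84% to 18.7%) in replicate 1. CD44- replicate 1 stood apart with 9.01 Car1 and 78.2 Car2 transcripts, and was also the library with the highest Beta-s level. The mean difference between the sorts was 9.55 percentage points (exact permutation p = 0.2, 3 against 3), and 1.18 without CD44- replicate 1. The similarity depends on single wells: without the well with the most Car1 and Car2 of each library, the share was 41.5%, 32.2% and 34.0% in CD44+ and 1.96%, 42.5% and 25.8% in CD44-. As a mean over wells that held either gene it was 28.1%, 33.7% and 36.1% in CD44+ and 3.60%, 36.1% and 32.1% in CD44-.

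Single wells varied far more than these sums. In the 69 wells with at least 20 transcripts of the 2 genes, 63 CD44+ and 6 CD44-, the Car1 share ran from 2.77% to 91.5% with a median of 33.7%, and Car1 exceeded Car2 in 15. The highest Car1 well, in CD44+ replicate 3, held 556 Car1, 392 Car2 and 2 Beta-s transcripts of 103902. The next held 327 Car1, 370 Car2 and 3 Beta-s (CD44+ replicate 2), and the third held 320 Car1, 166 Car2 and 2 Beta-s (CD44+ replicate 3). By contrast, the highest Car2 well held 115 Car1, 553 Car2 and 99.2 Beta-s, and the highest Beta-s well 92.0 Car1, 409 Car2 and 1711 Beta-s. The wells with the most Car1 transcripts thus held almost no globin, while the CD44+ wells with the most Beta-s transcripts held more Car2 than Car1. Ranked by the Beta-s share of the well, the picture differed. The CD44+ wells at 4.88%, 4.66% and 4.13% Beta-s held neither Car1 nor Car2, while the one at 4.74% held more Car2 than Car1.

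Over the 69 wells, the Car1 share and the Beta-s share of the well had a Spearman correlation of -0.68, and the Car1 share and well depth one of 0.04. The first was -0.83 within CD44+ replicate 2 (9 wells) and -0.62 within CD44+ replicate 3 (43 wells). Limits on Beta-s set after the values were seen gave 28 wells below 0.05% Beta-s, 27 from 0.05% to 0.5% and 14 at 0.5% or more. Car1 made up 48.4%, 25.2% and 22.1% of the 2 genes' transcripts in these, and exceeded Car2 in 13, 2 and 0 wells. The fall from the lowest to the next level of Beta-s was seen in each CD44+ library, from 55.1% to 26.0% in replicate 1, 45.6% to 29.3% in replicate 2 and 48.5% to 24.6% in replicate 3. Median depth was 22848, 23328 and 16462 transcripts at the 3 levels.

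**Figure D3:**
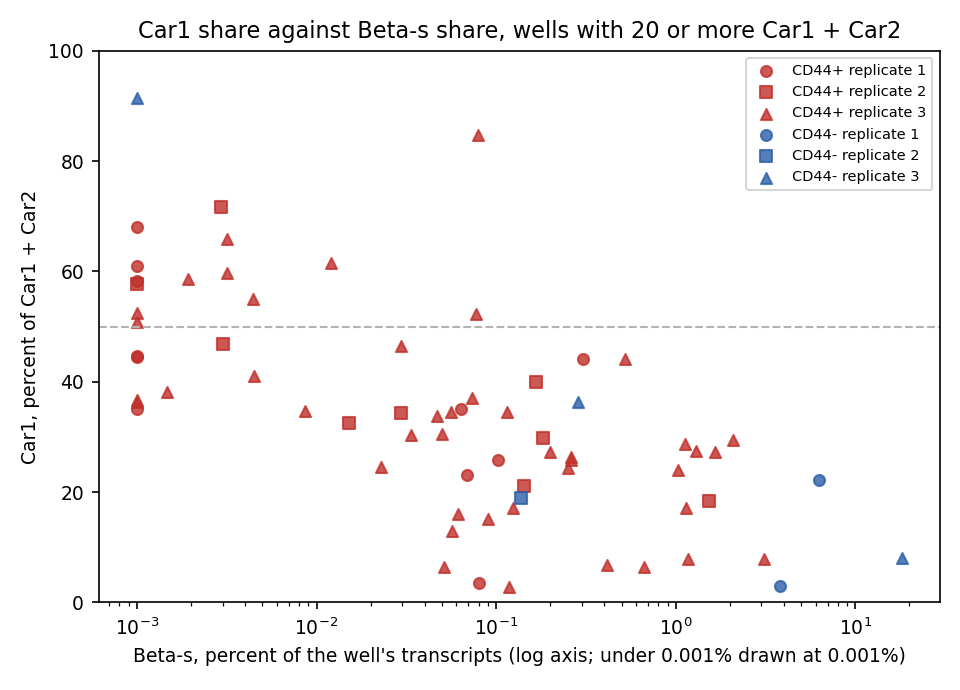
Share of Car1 in Car1 plus Car2 transcripts (percent) against the Beta-s share of the well (percent, log axis, with values under 0.001% drawn at 0.001%) in the 69 wells with at least 20 transcripts of the 2 genes; colour is the sort, shape the replicate, and the dashed line is an equal share. Of the 15 wells above the line, 13 lie below 0.05% Beta-s and none at 0.5% or more.

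Beta-s and Prdx2 were more loosely linked. Their Spearman correlation over the 343 wells was 0.32, at 0.33, 0.18 and 0.42 within CD44+ replicates 1, 2 and 3 and 0.56, 0.26 and 0.25 within CD44-. Over all wells the correlation of Prdx2 was 0.45 with Car2 and 0.39 with Car1, but within libraries the order was mixed. The correlation with Car2 was the higher in all 3 CD44+ libraries and that with Beta-s in all 3 CD44- libraries, while Car1 was above Beta-s in 3 of the 6. The correlation of Bpgm was 0.31 with Beta-s, 0.04 with Car2 and -0.05 with Car1. Within libraries, that with Beta-s was above those with both Car1 and Car2 in 5 of 6. With Blvrb it was higher than with Beta-s in CD44+ replicates 1 (0.12 against 0.09) and 2 (0.26 against 0.16). With Prdx2 it was higher than with Beta-s in CD44+ replicate 2 (0.19 against 0.16) and CD44- replicate 2 (0.52 against 0.36). Bpgm was found in 17 wells after thinning, so these values are weak.

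**Figure D4:**
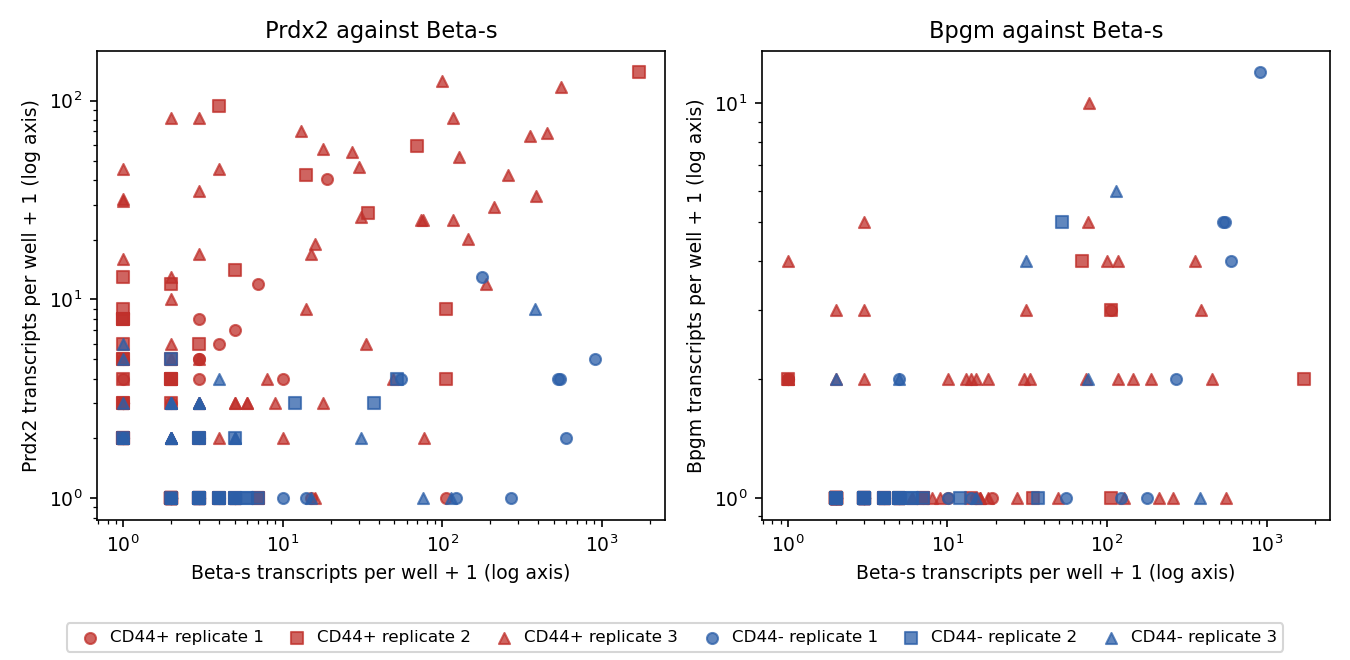
Prdx2 (left) and Bpgm (right) against Beta-s transcripts per kept well, 1 added to each, on log axes, in wells that held either gene; colour is the sort and shape the replicate. Wells with many Prdx2 transcripts span the whole range of Beta-s and are CD44+, whereas the well with the most Bpgm is the CD44- well with 905 Beta-s transcripts.

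The wells with the most globin transcripts differed in depth. The second highest, in CD44- replicate 1, held 905 Beta-s transcripts, 66.1% of its 1369, with no Car1 or Car2, 4 Prdx2 and 11 Bpgm. The third, in the same library, held 593 Beta-s (25.6% of the well), no Car1 or Car2, 1 Prdx2 and 3 Bpgm. The fourth, in CD44+ replicate 3, held 554 Beta-s (1.29% of 42802 transcripts) beside 99.2 Car1, 263 Car2 and 117 Prdx2, and no Bpgm. In these 2 CD44- wells globin was a large share of few transcripts, and in this CD44+ well a small share of many.

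Beta-s made up at least 1% of transcripts in 27 kept wells, 14 CD44+ and 13 CD44-, which held 85.1% of all Beta-s in kept wells; the share was 1.03% in the lowest of them and 0.70% in the highest well left out. The wells were chosen for their Beta-s share, so the values that follow are a description. Of the CD44+ wells, 9 held 5000 or more transcripts and 5 fewer, while all 13 CD44- wells held fewer; the limit of 5000 was set after the values were seen. The 9 deep CD44+ wells stood at 1518 CPM of Car1, 5578 CPM of Car2, 1818 CPM of Prdx2, 1059 CPM of Blvrb and 31.5 CPM of Bpgm. The 5 shallow CD44+ wells stood at 116 CPM of Car1, 1275 CPM of Car2, 811 CPM of Prdx2, 463 CPM of Blvrb and 1507 CPM of Bpgm. Their Beta-s share ran from 1.08% to 4.88% of the well, against 1.03% to 3.08% in the deep CD44+ wells and 1.45% to 66.1% in the CD44- wells. The 13 CD44- wells stood at 511, 4425, 1387, 328 and 1313 CPM of the same 5 genes in that order.

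Bpgm was higher in the shallow globin-rich wells of both sorts than in the deep ones. It rests on 13 transcripts in 3 of the 5 shallow CD44+ wells, 36 in 9 of the 13 CD44- wells and 9 in 6 of the 9 deep wells. Of the 13 transcripts in the shallow CD44+ wells 9.01 came from 1 well, and without the well with the most Bpgm in each set the level was 571 CPM there and 960 CPM in the CD44- wells, still above the 31.5 CPM of the deep wells. Alas2, the erythroid enzyme that begins heme synthesis, went the same way, at 4294 CPM in the shallow CD44+ wells, 2775 CPM in the CD44- wells and 418 CPM in the deep wells. Late erythroid markers led 2 of the 5, 8 of the 13 and none of the 9, and erythroid progenitor markers 2, 2 and all 9. Neutrophil markers led another 3 of the 13. Mitochondrial transcripts were at most 5.41% of any of the 27 wells. By the limit on Kcnq1ot1, some of the shallow wells were nevertheless of low quality. They were the CD44+ replicate 1 wells with 1301 and 2552 transcripts, and the wells of CD44- replicates 1 and 3 with 1375 and 2098.

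Prdx2 varied from 811 to 1818 CPM between these 3 sets of wells while Beta-s varied from 14902 to 140221 CPM, so the ratio of the 2 genes differed widely. For each 100 Beta-s transcripts there were 14.4 of Prdx2 in CD44+ replicate 3 (10 wells) and 7.78 in CD44+ replicate 2 (2 wells), against 0.814 in CD44- replicate 1 (8 wells), 5.85 in replicate 2 (1 well) and 1.51 in replicate 3 (4 wells). CD44+ replicate 1 had 2 such wells with 119 Beta-s and no Prdx2 transcript.

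Beta-s was also read in wells that held too few transcripts to be kept. It made up 0.626%, 0.254% and 0.104% of the transcripts of such wells in CD44+ replicates 1, 2 and 3, and 3.99%, 0.156% and 0.362% in CD44-. These shares moved with the limit on transcripts. Below 500 transcripts they were 0.292%, 0.472% and 0.155% in CD44+ and 2.33%, 0.135% and 0.427% in CD44-, and below 100 they were 0.379%, 0.748% and 0.230% in CD44+ and 2.07%, 0 and 1.43% in CD44-. CD44- replicate 1 was the highest at each limit. In CD44- replicate 1, 114 of 340 such wells held a Beta-s transcript, and 10 wells with 50 or more held 79.7% of the library's 2435 sub-minimum Beta-s transcripts, up to 64.5% of a well. Those 10 wells held 17 Bpgm, 14 Car2, 3 Prdx2 and no Car1 transcripts, and the kept wells of that library with at least 1% Beta-s held 23 Bpgm, 74.2 Car2, 26.0 Prdx2 and 9.01 Car1 transcripts. CD44+ replicate 1 had 3 such wells (286 Beta-s, 6 Car2, 2 Bpgm, no Car1 or Prdx2), and the shared plates had none.

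**Figure D5:**
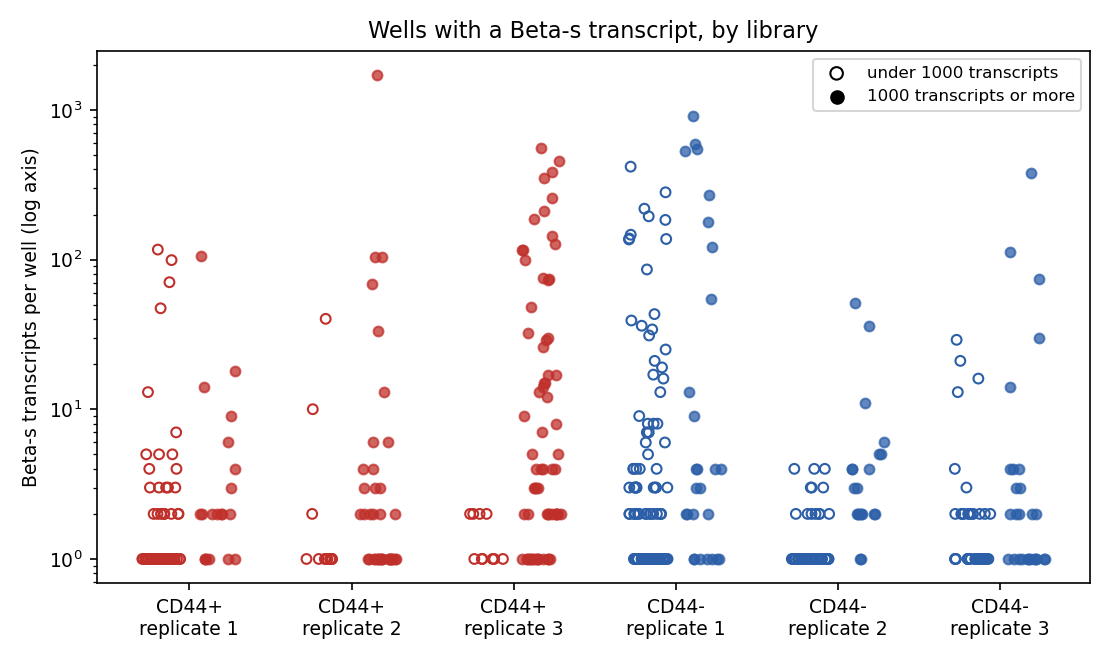
Beta-s transcripts per well (log axis) in every well that held at least 1, by library; open circles are wells under 1000 transcripts and filled circles kept wells, spread sideways at random. Open circles at 50 or more number 10 in CD44- replicate 1 and 3 in CD44+ replicate 1, where another lies just under that limit, at 47.3.

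The genes most like each of the 6 were those with the highest Spearman correlation of thinned counts over the 343 wells, among 2160 genes found in at least 20 wells. For Beta-s they were Alas2 (0.48), Slc4a1, the band III anion exchanger (0.47), Ctse (0.39), Tfdp2 (0.37) and Slc25a37, the mitochondrial iron importer (0.36). For Bpgm they were Alas2 (0.44), Isca1 (0.42), Adipor1 (0.35), Gpcpd1 (0.33) and Epb4.1 (0.33). Alas2 led both lists.

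For Car2 the genes were Cpox, an enzyme of heme synthesis (0.58), Ctse (0.53), Fam132a (0.51), Ybx3 (0.50) and Rps12 (0.49). For Car1 they were the ribosomal protein genes Rplp1 (0.46), Rps2 (0.46) and Rps12 (0.44), with Cpox (0.46) and Fam132a (0.45). The Car1 and Car2 lists shared Cpox, Fam132a and Rps12, and neither held Alas2 or Slc4a1.

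For Prdx2 they included Cpox (0.36), Rpl41 (0.36) and Tnfaip2 (0.35). For Blvrb they were Prdx3, the mitochondrial peroxiredoxin (0.46), Ctse (0.40), the blood group gene Rhd (0.40), Rpl41 (0.38) and Rps12 (0.37). The median correlation over all compared genes was between -0.02 and 0.06 for the 6.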

How the data were processed

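The authors' deposited values are estimated counts (expected counts) per gene and well, made with BWA 0.7.15 and build mm10 per the submitters' processing notes; the sources used here give no counter, annotation or strand setting. Undoing a UMI saturation correction with 4096 possible UMIs returned 100.0% of 821564 values above 0 to whole numbers (tolerance 0.011), so the step was inferred. The design had assumed plain counts, and sums were rounded to whole numbers. Wells 1 to 192 of shared plates were taken as rows A to H, an order the labels do not state.

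Summing kept wells gave 3 libraries per sort, tested with edgeR 4.0.16 in R 4.3.3 (quasi-likelihood, TMM, filterByExpr, two-sided, Benjamini-Hochberg, 0.05), without covariate; the replicate block and DESeq2 1.42.0 were alternatives. The SE is the log2 difference divided by the square root of F. The test was run on simulated data first. CPM used summed totals alone. Shares were compared with scipy 1.17.1. No doublet caller was run, since the labels describe single sorted cells.

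Deviations from the mean of each sort correlated at 0.43, 0.30 and 0.33 between same-numbered libraries and at -0.35 to 0.07 in other combinations. Centring over 3 libraries itself pushes the other combinations down where the same-numbered ones are up. The contrast between them is therefore no test of pairing. The labels put both sorts of replicates 2 and 3 on shared plates, so numbers were taken as pairs. For replicate 1, on separate plates, the pairing rests on the number and on these same data. The labels name no animals, so p-values measure the spread between libraries, which may be technical.

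The members and lists were chosen with earlier results of these data known. Named are the 6 genes; listed genes that were called, with or without the block, and up to 4 tested genes per list with the highest mean CPM; and the 5 genes most correlated with each, of which some are not reported here. Others were chosen after their values were seen: Blvra, Hmox1, Car5a, Car5b, Hba-a1, Hbb-bh1 and Hbb-b2. Sequences are from RefSeq (GRCm38.p6). Intervals cover counting error only.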

Additional observations from a re-analysis of the deposited data

Results flagged for a closer look

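Wells below the minimum of 1000 transcripts entered neither the main test between the sorts nor the main shares of wells, yet those of CD44- replicate 1 held 2435 Beta-s transcripts (2434.55 as summed), against 14.0 to 449 in the 3 CD44+ libraries and 67.0 and 129 in the other CD44- libraries. The kept wells of that library were also highest in Beta-s, at 33551 CPM.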

How the results depend on the processing

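The log2 differences of the 5 tested genes kept their direction in every alternative that was run; calls did not. DESeq2 called all 5 (Beta-s -3.26, Car1 2.52, Car2 1.87, Prdx2 1.32, Blvrb 2.06), as did edgeR with no filter on low counts (-2.52, 2.97, 2.41, 1.86 and 2.65), where Bpgm made it 6. The replicate block called 4 (Car1 2.55, Car2 1.86, Prdx2 1.38, Blvrb 2.09), and leaving out wells of low quality 1 (Car1, 2.76). Genes called higher over all genes numbered 1, and 98 with DESeq2, 142 with no filter, 43 with the block, 6 without wells of low quality, 0 after thinning and 0 to 7 with 1 library left out. Genes called lower numbered 24, and 172, 334, 113, 49, 0 and 0 to 108 under the same settings, 40 from wells with at least 500 transcripts and 160 on the shared plates alone. Where counts were 0, genes at an unadjusted p under 0.05 were 38 after thinning and 336 to 619 without 1 library. Without CD44- replicate 1 the calls were 7 higher and 108 lower; without any other 1 library there were none. Beta-s was -0.36 on the shared plates alone.

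Some small differences in the share of wells changed sign. That of Car2 (6.56 percentage points) was -5.90 on the shared plates alone and -5.88 to 19.6 with 1 library left out. That of Prdx2 (3.02) was -0.26 on the shared plates alone and -2.50 to 10.4 with 1 library left out. That of Bpgm was 3.69 without thinning. In the wells led by erythroid progenitor markers on the second shared plate, the Beta-s level in CD44+ minus that in CD44- was -9836 CPM, and 1956 CPM without the well with the most Beta-s in each set. Leaving out the highest wells and the minimum of 3 thinned transcripts were chosen after seeing the data. Low counts limit Bpgm and Blvrb in CD44-, and 24 to 44 wells limit the CD44- shares.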
